A study of Homo sapiens with 8 samples.

Results

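The mRNAs of 10 genes of the mTOR pathway were followed from input RNA into RNA pulled down with ribosomal protein S6 (RPS6) in cancer cell lines. They were taken by gene symbol from the expression tables, which list 57756 genes, and all 10 symbols (MTOR, RPTOR, RICTOR, MLST8, TSC1, TSC2, RHEB, AKT1, EIF4EBP1 and RPS6KB1) were found there once. RNA immunoprecipitation sequencing (RIP) used an RPS6 antibody on 4 cell lines, Hep3B (hepatocellular carcinoma), HCT116 (colorectal cancer), DU145 (prostate cancer) and SW1990 (pancreatic cancer). Each cell line gave 1 RIP library and 1 input library, which holds lysate RNA without the pull-down, so 8 libraries formed 4 pairs. No cell line was sequenced again, no pull-down with a control antibody was analysed here, and the labels give no genetic change or treatment for any library. A p-value therefore weighs the mean difference between RIP and input against how far that difference varied between cell lines. In edgeR the estimate of this variation for a gene also draws on the other genes tested, so it is not the spread of that gene's pairs alone.

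The kinase mTOR works in a pair of complexes. mTORC1 is built around RPTOR, mTORC2 around RICTOR, and MLST8 is a subunit of both. AKT1 phosphorylates TSC2, which in complex with TSC1 turns off the small GTPase RHEB, the direct activator of mTORC1 on lysosomes. mTORC1 then phosphorylates EIF4EBP1, a repressor of the cap-binding factor EIF4E, and RPS6KB1, the S6 kinase that phosphorylates RPS6. The antibody used for the pull-down thus recognized a protein at the end of the pathway, and as a component of the small ribosomal subunit RPS6 is found with mRNAs on ribosomes.

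Libraries held between 34630362 and 54209626 fragments, recovered from the deposited counts, and 546 to 36194 of them fell on a single member. By its titles the pair from liver cancer is Hep3B, whereas Huh7 stands in their cell line field, and the pair is called Hep3B here. All 4 liver markers examined (ALB, AFP, APOA1 and TF) reached 1 FPKM in both liver cancer libraries, a check that does not distinguish Hep3B from Huh7. The labelled tissues were less clear in the other lines. Of 4 markers each, 1 colorectal marker reached 1 FPKM in HCT116 input, 1 prostate marker in DU145 input, and 3 pancreatic ductal markers in SW1990 input. In DU145 cells KLK3 and HOXB13 were at 0 FPKM, and 3 pancreatic ductal markers also reached 1 FPKM in HCT116 and DU145 input. SW1990 input had 3 colorectal markers at this level, more than HCT116 input, and both HCT116 and SW1990 input had 2 prostate markers, more than DU145 input. Outside the liver pair the markers thus did not bear out the labelled tissues.

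mRNAs that translate under tight mTORC1 control often begin with an oligopyrimidine tract, a C at the first base followed by an unbroken run of C or T. First bases of the transcripts were read from RefSeq (GRCh38.p14), with coordinates in that build, to show whether the members that differed most between RIP and input start in this way. The initial run of C or T is in capitals, and RPS6, whose mRNA is of this class, is shown for comparison.
MTOR, chr1:11262536-11262551, minus strand: gctcccggcttagagg
RPTOR, chr17:80544838-80544853, plus strand: gtcctggcaatatggc
TSC2, chr16:2047985-2048000, plus strand: gcttccggcggcgtcc
RHEB, chr7:151519880-151519895, minus strand: gggagggtcatgacgc
RPS6KB1, chr17:59893121-59893136, plus strand: gcactgagcctaagca
RPS6, chr9:19380221-19380236, minus strand: CTCTTTTCCgtggcgc
The table holds 10 starts for 8 members, and 0 of them open with C and at least 4 further pyrimidines. Over all 35116 starts listed, 1429 (4.07%) do, read on the strand of the gene, and RPS6 has a run of 9 pyrimidines. The match is a description of these letters at an annotated start, and the starts used in these cells were not measured.

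Of the 10 members, 6 were higher in RIP than in input and 2 were lower. RPTOR, TSC2 and MTOR stood 7.80-, 7.42- and 6.42-fold higher, TSC1, AKT1 and MLST8 between 1.71- and 1.91-fold higher, while RHEB and RPS6KB1 were 3.29- and 2.45-fold lower. RICTOR and EIF4EBP1 did not pass the test. These folds come from edgeR's quasi-likelihood test with the cell line as a block, over 19921 genes, with a threshold of 0.05 on the Benjamini-Hochberg adjusted p. In the same test 26.5% of all genes were higher and 24.9% were lower, so a called difference was common in these data. The median log2 fold change was 0.79 over the members, -0.05 over all genes tested and 0.12 over the protein-coding genes tested. Of the latter, 31.98% were higher and 26.2% lower. At the level of single libraries, the RIP FPKM of 4 members (MTOR, RPTOR, TSC1 and TSC2) lay above the input FPKM in every comparison of libraries, against 10.9% of all genes tested. Those of RHEB and RPS6KB1 lay below it, against 8.17% of all genes tested. By share of fragments, the RIP and input libraries overlapped for TSC1. FPKM, the fragments per kilobase and 1000000 mapped fragments, is relative to its library, so that fewer cells with an RNA and less of it per cell cannot be told apart. It is not a plain share, since its sum over all genes ran from 620262 in DU145 RIP to 1659968 in Hep3B input.

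**Figure D1:**
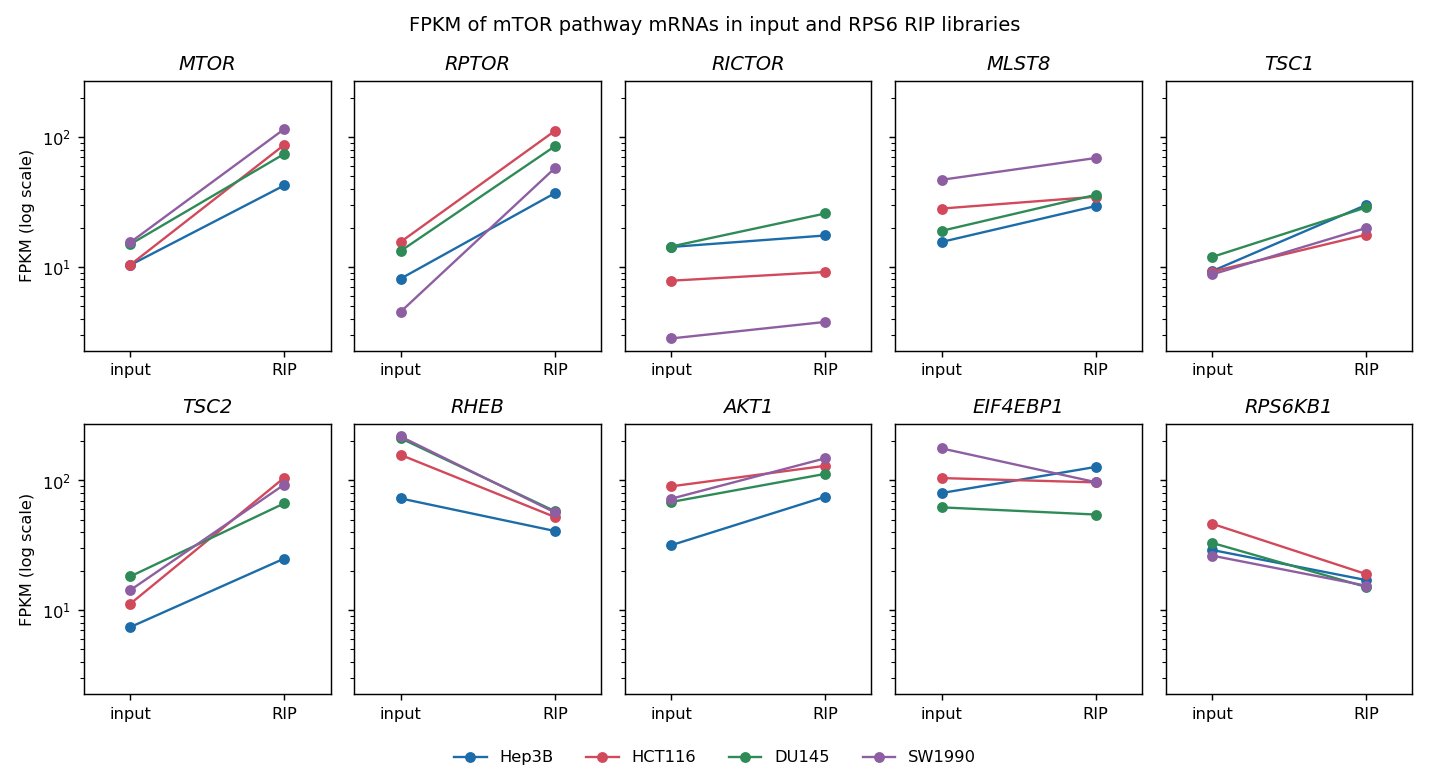
FPKM of the 10 members on a log axis, with 1 point per library and a line joining input and RIP of the same cell line. Lines for MTOR, RPTOR and TSC2 climb steeply in all 4 cell lines, those of RHEB and RPS6KB1 descend, and those of EIF4EBP1 climb in Hep3B cells and descend in the other 3.

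MTOR encodes the kinase itself. Its input FPKM was 10.3, 10.4, 14.9 and 15.4 in Hep3B, HCT116, DU145 and SW1990 cells, and its RIP FPKM was 42.6, 87.5, 74.5 and 116 in the same order. Inputs were close together and every RIP library lay above every input. Its log2 fold change was 2.68 (SE 0.26, adjusted p = 2.2e-05 by edgeR's quasi-likelihood test), and 1.45% of genes tested were at least as high. MTOR lies at chr1:11166591-11322564 (hg19), a stretch that the files give to 6 further genes as well. Among them ANGPTL7 reached 0.171 FPKM and MTOR-AS1 1.305 FPKM at most in any library.

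RPTOR, the scaffold through which mTORC1 holds its substrates, had the largest fold change of the members. Input FPKM was 8.12 (Hep3B), 15.6 (HCT116), 13.3 (DU145) and 4.51 (SW1990), while RIP FPKM was 37.0, 112, 85.2 and 57.7. The groups did not overlap, and SW1990 cells passed from the lowest input to a RIP level above that of Hep3B cells. The log2 fold change of RPTOR was 2.96 (SE 0.25, adjusted p = 1.4e-05 in edgeR), and 0.683% of genes tested were at least as high. The gene lies at chr17:78518618-78945013 (hg19) among 5 other listed genes. The most abundant of these, CTD-2561B21.5, stayed at or below 7.40 FPKM.

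RICTOR, the scaffold of mTORC2, behaved otherwise. Its input FPKM was 14.3, 7.83, 14.4 and 2.81 in Hep3B, HCT116, DU145 and SW1990 cells, and its RIP FPKM was 17.5, 9.14, 25.8 and 3.77. Groups overlapped widely, since the spread between cell lines exceeded the difference between RIP and input. RICTOR was the only member with the same order of cell lines in input and RIP, DU145 highest and SW1990 lowest. The log2 fold change of 0.17 (SE 0.20) did not pass the test (adjusted p = 0.49 in edgeR). The direction also depended on the unit. FPKM was higher in RIP in all 4 cell lines, whereas the share of fragments was lower in Hep3B, HCT116 and SW1990 cells (log2 ratios of -0.18, -0.30 and -0.54) and higher in DU145 cells (0.32). RICTOR is listed at chr5:38845959-39074510 (hg19) together with OSMR and AIG1P1. OSMR had 0.0342 to 117 FPKM in inputs and 0.0444 to 141 FPKM in RIP, a log2 fold change of 0.07 (adjusted p = 0.84 in edgeR). It was named here after its values were seen, and how far its fragments entered the value of RICTOR was not tested.

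The scaffolds of the complexes can be set against each other within a library, because both FPKM values are scaled by length. That length, as implied by count and FPKM, was not the same in input and RIP. For RICTOR it was 5.54 to 7.55 kb in inputs and 3.77 to 5.22 kb in RIP, and for RPTOR 3.81 to 5.75 kb and 3.68 to 4.46 kb. Its part in the ratios below was not tested. Input FPKM of RPTOR was 0.570 times that of RICTOR in Hep3B cells, 1.99 times in HCT116, 0.923 times in DU145 and 1.61 times in SW1990 cells. In RIP libraries the same ratio was 2.12, 12.2, 3.30 and 15.3. RPTOR thus exceeded RICTOR in every RIP library, while in the inputs neither was higher throughout. The log2 ratio of RIP to input was larger for RPTOR in 4 of 4 cell lines, by a mean of 2.31 ± 0.64 (SD, n = 4; exact sign-flip permutation test, two-sided p = 0.13, 0.19 adjusted over 3 pairs of members). With 4 cell lines this test cannot give a p below 0.13.

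MLST8, the subunit shared by both complexes, had input FPKM of 15.6 (Hep3B), 28.2 (HCT116), 18.98 (DU145) and 47.0 (SW1990). Its RIP FPKM was 29.5, 34.8, 36.0 and 69.2. Each cell line was higher in RIP, but the groups overlapped, since the SW1990 input lay above 3 of the RIP libraries. In the fit MLST8 had a log2 fold change of 0.78 (SE 0.20, adjusted p = 0.0090 in edgeR), the highest adjusted p among the members that passed. Without the Hep3B pair the adjusted p became 0.061, and without the DU145 pair 0.055, so the call rested on both. By share of fragments, MLST8 was lower in RIP in HCT116 cells, with a log2 ratio of -0.22.

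TSC1 and TSC2 are partners in 1 complex, TSC2 being the GTPase-activating protein for RHEB and TSC1 its stabilizing partner. TSC1 had input FPKM of 9.28, 9.19, 11.9 and 8.75 in Hep3B, HCT116, DU145 and SW1990 cells, and RIP FPKM of 30.1, 17.7, 28.8 and 19.998. TSC2 had input FPKM of 7.39, 11.2, 18.2 and 14.2, and RIP FPKM of 24.99, 105, 66.7 and 93.0. For both genes every RIP library lay above every input, and TSC2 spread further in RIP than in input. The log2 fold change was 0.94 for TSC1 (SE 0.18, adjusted p = 0.0014 in edgeR) and 2.89 for TSC2 (SE 0.23, adjusted p = 1.3e-05). Subtracting the log2 ratio of TSC2 from that of TSC1 gave -0.03 (Hep3B), -2.25 (HCT116), -0.62 (DU145) and -1.52 (SW1990). The mean was -1.10 ± 0.98 (SD, n = 4), lower for TSC1 in 4 of 4 cell lines (exact sign-flip permutation test, two-sided p = 0.13, adjusted 0.19). In Hep3B cells the partners therefore differed little on the FPKM scale. On fragments the log2 ratio in Hep3B cells was 0.42 for TSC1 and 2.49 for TSC2.

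Reads near TSC2 need care. The files assign chr16:2089815-2185899 (hg19) to TSC2 and 9 other genes, among them PKD1, and whether fragments were counted by strand is not given in the sources used here. PKD1 had 6.96 to 45.9 FPKM in inputs and 50.4 to 432 FPKM in RIP, a log2 fold change of 3.59 (adjusted p = 1.2e-05 in edgeR). It was named here after its values were seen, and how far fragments of PKD1 entered the value of TSC2 was not tested. TSC1 is listed alone at its locus.

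RHEB, the GTPase that switches mTORC1 on, had the lowest fold change of the members. Input FPKM was 72.7, 158, 212 and 218 in Hep3B, HCT116, DU145 and SW1990 cells, and RIP FPKM was 40.8, 52.3, 58.0 and 56.8. All 4 RIP libraries were below all 4 inputs. The cell lines differed up to 3.00-fold in input and up to 1.42-fold in RIP. RHEB had a log2 fold change of -1.72 (SE 0.21, adjusted p = 9.2e-05 in edgeR), and 14.2% of genes tested were at most as low. The processed pseudogenes RHEBP1 and RHEBP2, whose fragments may be shared with RHEB, had at most 13.0 and 13.1 FPKM, both in Hep3B input, and RIP values of at most 3.53 and 6.25 FPKM.

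The balance between RHEB and its neighbours in the pathway changed sides between input and RIP. Set over that of MTOR, the input FPKM of RHEB was 7.04 times as high in Hep3B cells, and 15.2, 14.2 and 14.1 times as high in HCT116, DU145 and SW1990 cells. In RIP libraries the ratio was 0.958, 0.598, 0.779 and 0.490. MTOR, the less abundant mRNA in every input, was thus the more abundant of the pair in every RIP library, by a small margin in Hep3B cells. RHEB exceeded TSC2, its inhibitor, between 9.84- and 15.3-fold in inputs, and in RIP it stayed above TSC2 in Hep3B cells (1.63-fold) and was at 0.497, 0.870 and 0.610 times TSC2 in HCT116, DU145 and SW1990 cells. These ratios of levels are descriptions, with 1 library of each kind per cell line.

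AKT1 encodes the kinase that carries growth factor signals to TSC2. AKT1 input FPKM was 31.6, 90.1, 68.2 and 72.3 in Hep3B, HCT116, DU145 and SW1990 cells, and its RIP FPKM was 74.9, 130, 112 and 148. Each pair was higher in RIP, and the groups overlapped only because Hep3B RIP lay below HCT116 input. In the fit the log2 fold change was 0.80 (SE 0.20, adjusted p = 0.0062 in edgeR). Counting intervals of the share of fragments were narrow for all members, and 39 of 40 pairs of libraries had an interval apart from 0. AKT1 in HCT116 cells was the remaining pair, with a log2 fragment ratio of -0.03 (95% exact binomial interval -0.065 to 0.0092). Intervals cover counting error only, since fragments are not independent molecules.

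EIF4EBP1 and RPS6KB1 are the best known substrates of mTORC1. EIF4EBP1 had input FPKM of 80.0 (Hep3B), 104 (HCT116), 62.0 (DU145) and 177 (SW1990), and RIP FPKM of 127, 96.7, 54.6 and 97.1. It was higher in RIP in Hep3B cells and lower in the other 3, and the groups overlapped. The fit gave a log2 fold change of -0.08 (SE 0.25, adjusted p = 0.82 in edgeR), and it took the opposite sign without the SW1990 pair (0.18, adjusted p = 0.56). EIF4EBP1 was the only member whose FPKM ratio changed direction between cell lines. Its log2 ratio averaged -0.12 ± 0.62 (SD, n = 4).

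RPS6KB1 had input FPKM of 29.1, 46.4, 33.0 and 26.3 in Hep3B, HCT116, DU145 and SW1990 cells, and RIP FPKM of 17.0, 18.97, 15.1 and 15.4. Every RIP library lay below every input, and the RIP levels lay within 1.26-fold of each other. The log2 fold change of RPS6KB1 was -1.29 (SE 0.17, adjusted p = 0.00015 in edgeR), and 21.3% of genes tested were at most as low. Its locus, chr17:57970446-58096413 (hg19), is shared with 7 listed genes, of which RNFT1 had 12.3 to 22.8 FPKM in inputs and 4.27 to 22.0 FPKM in RIP. In the fit RNFT1 was lower as well, with a log2 fold change of -1.52 (adjusted p = 0.00058 in edgeR). How far fragments of RNFT1 entered the value of RPS6KB1 was not tested. The log2 ratio of RIP to input was larger for EIF4EBP1 than for RPS6KB1 in 3 of 4 cell lines, by a mean of 0.83 ± 0.67 (SD, n = 4; exact sign-flip permutation test, two-sided p = 0.25, adjusted 0.25). This difference did not pass the test.

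**Figure D2:**
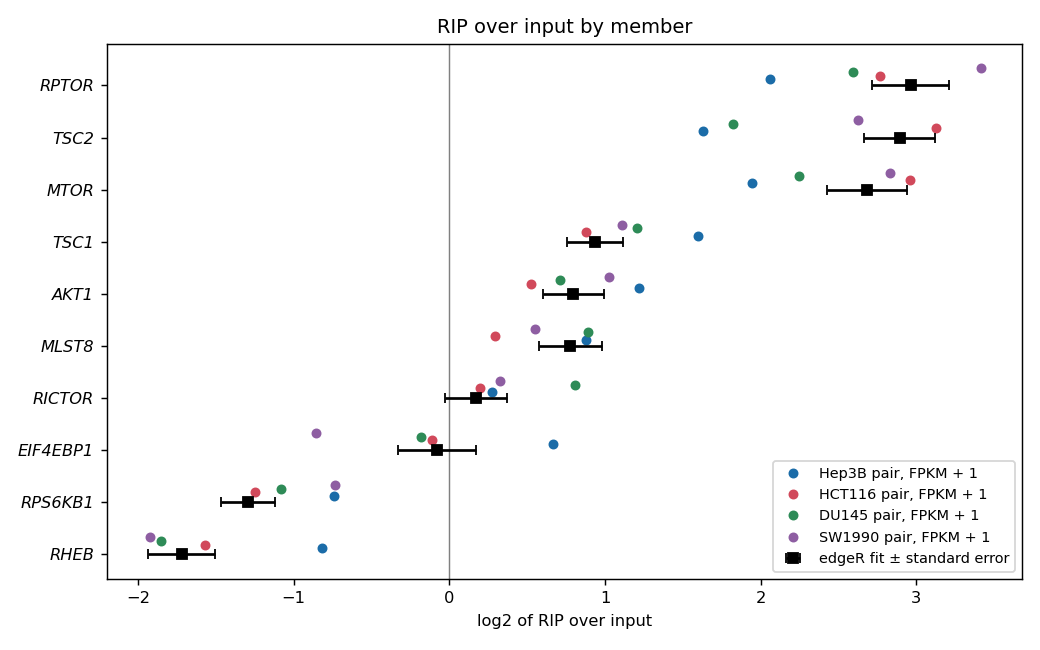
Log2 of RIP over input for each member, with black squares for the edgeR fit and its standard error and coloured points for the FPKM + 1 ratio of each cell line. RPTOR, TSC2 and MTOR lie apart from the other members at 2.68 or above, and the points of EIF4EBP1 fall on both sides of 0.

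The ratio differed between cell lines as well as between members. On the scale of log2(FPKM + 1), the mean over cell lines was 2.71 ± 0.56 for RPTOR, 2.49 ± 0.48 for MTOR and 2.30 ± 0.70 for TSC2 (SD, n = 4). It was 1.20 ± 0.30 for TSC1, 0.87 ± 0.31 for AKT1, 0.65 ± 0.29 for MLST8 and 0.40 ± 0.27 for RICTOR. Among the members lower in RIP it was -0.95 ± 0.26 for RPS6KB1 and -1.54 ± 0.51 for RHEB. Apart from EIF4EBP1, each member had the same direction in 4 of 4 cell lines, which gives the exact sign-flip permutation test its smallest p of 0.13. On this scale Hep3B cells had the smallest ratio for MTOR (1.94), RPTOR (2.06) and TSC2 (1.63), and also the RHEB ratio closest to 0 (-0.82), while they had the largest ratio for TSC1 (1.60) and AKT1 (1.22). By share of fragments, the places of MTOR, TSC2 and TSC1 changed. DU145 cells then had the smallest log2 ratio of MTOR (1.89, with 1.99 in Hep3B cells) and of TSC2 (1.98, with 2.49 in Hep3B cells), and Hep3B cells had the smallest of TSC1 (0.42, with 0.54 to 0.75 in the others). With 1 pair per cell line these differences have no replicate check.

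As a share of all fragments, the 10 members together took more of each RIP library than of its input. Per 1000000 fragments, the inputs of Hep3B, HCT116, DU145 and SW1990 cells held 639, 1129, 1091 and 1061 of the members, and the RIP libraries held 1168, 2194, 1816 and 2178. The sum hides opposite changes. In SW1990 cells MTOR went from 127 to 940, RPTOR from 25.9 to 244 and TSC2 from 43.5 to 301. AKT1, TSC1 and MLST8 rose by less. RHEB fell there from 198 to 38.6 and EIF4EBP1 from 220 to 96.2, and RPS6KB1 and RICTOR fell as well. The order of members within a library also moved. RHEB was the most abundant member by FPKM in the HCT116, DU145 and SW1990 inputs and EIF4EBP1 in the Hep3B input, whereas AKT1 led in the HCT116, DU145 and SW1990 RIP libraries and EIF4EBP1 again in the Hep3B RIP library. MTOR moved from place 6 to 8 in the inputs to place 2 to 5 in RIP. Hep3B cells had the lowest input FPKM of 5 members and the lowest RIP FPKM of 6, with the caveat that the liver and colorectal libraries were scaled in a different table from the prostate and pancreatic ones.

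Members with long transcripts were among those highest in RIP, so each was set beside protein-coding genes of like length. Transcript length was taken as the value implied by count and FPKM. Over the 14599 protein-coding genes tested, divided into 4 bins of length, the median log2 fold change was -0.54 in the shortest bin (up to 1.25 kb), 0.09 and 0.23 in the middle bins, and 0.69 in the longest bin (above 3.02 kb). Higher calls made up 15.6% of genes in the shortest bin and 45.8% in the longest. MTOR (8.30 kb), RICTOR (5.38 kb), RPTOR (4.34 kb), TSC1 (4.30 kb) and TSC2 (3.28 kb) belonged to the longest bin, and RHEB (0.835 kb) and EIF4EBP1 (1.13 kb) to the shortest.

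Within the longest bin, 1.62% of genes were at least as high as RPTOR, 2.0% as TSC2 and 3.48% as MTOR. RICTOR had a longer transcript than RPTOR and TSC2, and 62.9% of genes of its bin were at least as high. RPS6KB1 (2.47 kb) and AKT1 (2.57 kb) shared a bin and differed in direction, and 13.9% of the genes there were at most as low as RPS6KB1. In the shortest bin 20.5% of genes were at most as low as RHEB. Implied length itself was shorter in RIP than in input for 86.9% to 96.2% of protein-coding genes in each cell line. It was shorter in all 4 cell lines for 8 members, in 3 for MLST8 and in 1 for TSC2. TSC1 in Hep3B cells had 4.99 kb in input and 2.06 kb in RIP, while TSC2 had 2.76 kb and 4.58 kb. The part of length in the members' values was not tested.

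**Figure D3:**
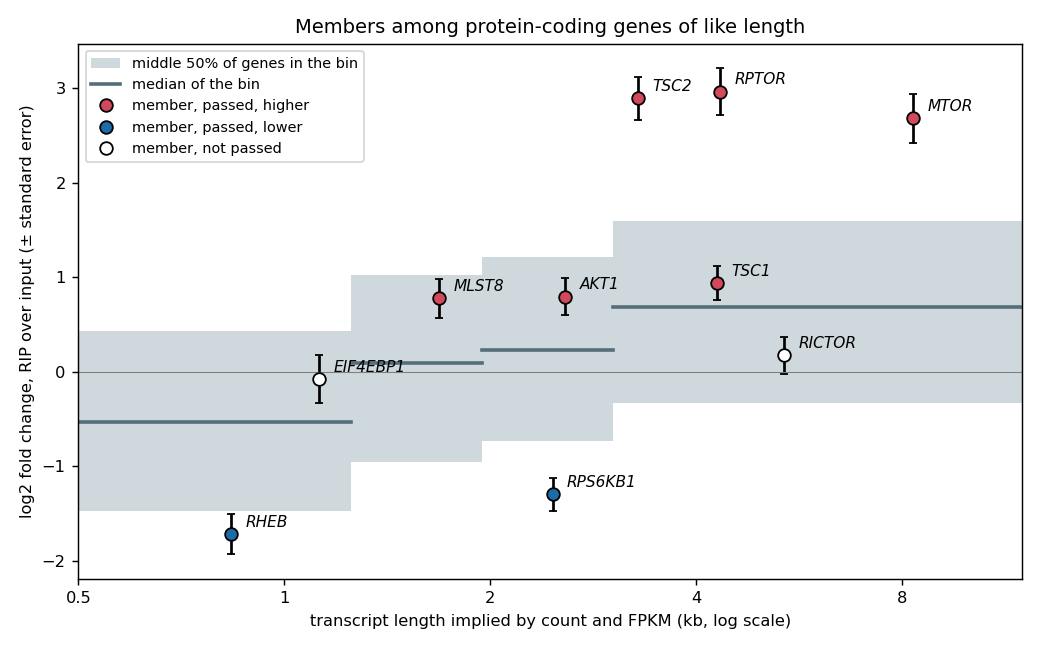
Log2 fold change of each member with its standard error against implied transcript length on a log axis, with grey bands for the middle 50% of protein-coding genes in each bin of length and a line for their median. MTOR, RPTOR and TSC2 lie above the band of the longest bin, RICTOR lies inside it, and RHEB and RPS6KB1 lie below the bands of their bins.

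The wider pathway held 83 further genes, of which 81 were tested. Of these, 37 were higher in RIP, 23 were lower and 21 did not pass the test, with a median log2 fold change of 0.44 beside 0.12 over all protein-coding genes tested. Higher calls made up 45.7% of the wider genes and 31.98% of protein-coding genes, and lower calls 28.4% and 26.2%, so the share of lower calls was near that background. PIK3R2 is listed more than once and EIF4EBP3 lay under the minimum of 10 counts, so neither was tested. Adjusted p-values below are from edgeR.

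Other subunits and assembly factors of the mTOR complexes were higher in 5 of 8 cases (62.5%) and lower in 0, with a median of 0.94. DESeq2 and limma also called 0 lower. At an unadjusted p under 0.05, 0 were lower in edgeR, 1 in DESeq2 and 0 in limma. TELO2, part of the TTT complex that helps mature mTOR and related kinases, rose in RIP by 2.78 on the log2 scale (adjusted p = 1.8e-05), with 6.22 to 23.9 FPKM in inputs and 19.8 to 147 FPKM in RIP. Its partners TTI1 and TTI2 were also higher (1.5 and 0.96), and so were AKT1S1, an inhibitory subunit of mTORC1 (0.69), and PRR5, an mTORC2 subunit (1.69). The mTORC2 subunit MAPKAP1 had -0.28, with an adjusted p of 0.20. TTI1, TTI2, AKT1S1 and MAPKAP1 were named after their values were seen.

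Of the genes that bring amino acid signals to mTORC1, 10 of 28 were higher and 9 lower, with a median of -0.07. These shares, 35.7% and 32.1%, were near those of protein-coding genes in general. Lower calls numbered 6 without HCT116 cells, 6 without DU145 cells, 6 in limma and 9 in DESeq2. In edgeR without the block 5 genes were higher and 1 lower (7 and 4 at an unadjusted p under 0.05). WDR24, a subunit of the GATOR2 complex, had a log2 fold change of 2.65. LAMTOR3 and LAMTOR2, subunits of the Ragulator scaffold that anchors the Rag GTPases, had -2.01 and -1.75. In edgeR without the block these 2 did not pass (adjusted p of 0.16 and 0.054). Grouped by complex after the values were seen, all 5 LAMTOR genes were lower, with log2 fold changes between -2.01 and -0.56. All 3 subunits of GATOR1, the complex that restrains mTORC1 when amino acids are scarce, were higher (1.17 to 2.08). GATOR2 was mixed, with 2 of 5 subunits higher, 1 lower and 2 not passing the test. Of the 3 sestrin genes, 1 was higher and 2 were lower. Among the lower ones SESN1 had an adjusted p of 0.045 and was higher by FPKM in 2 cell lines and lower in 2, and SESN3 was lower by FPKM in 3. The 4 Rag GTPases had log2 fold changes between -0.47 and 0.44, and none of them passed in the main edgeR fit (1 higher at an unadjusted p under 0.05). DESeq2 called 1 higher, and limma 0 (1 higher unadjusted). In edgeR without SW1990 cells, 1 was higher and 1 lower.

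In the PI3K and AKT list 8 of 16 genes were higher and 4 lower, shares above and near those of protein-coding genes, with a median of 0.43. The lower calls dropped to 2 without HCT116 cells and 1 without DU145 cells. In limma on log2 FPKM they dropped to 0 (2 at an unadjusted p under 0.05), and in edgeR without the block to 0 (1 unadjusted), while DESeq2 called 5. PHLPP1, a phosphatase of AKT, had 2.85 and INPPL1, a lipid phosphatase, had 2.5, while the catalytic subunit PIK3CA had -0.65. AKT2 was higher like AKT1 (1.18). Of the energy and stress list 3 of 11 genes were higher (27.3%) and 5 lower (45.5%), with a median of -0.40. Lower calls numbered 3 without DU145 cells, 2 in limma and 6 in DESeq2. In edgeR without the block 0 genes passed in either direction (2 higher and 1 lower at an unadjusted p under 0.05). STK11, the kinase upstream of AMPK, and its partner STRADA were higher (1.23 and 0.89), while PRKAA2, a catalytic subunit of AMPK, and PRKAG2, a regulatory subunit, were lower (-1.43 and -1.41). PRKAA2 was listed at 0 in both SW1990 libraries.

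Downstream effectors were higher in 11 of 18 cases (61.1%) and lower in 5 (27.8%), with a median of 1.16. EIF4G1, the scaffold of the cap-binding complex, had 2.18, and ULK1, the autophagy kinase that mTORC1 inhibits, had 2.15. RPS6 mRNA itself was lower (-2.24, adjusted p = 0.00010), with 461 to 4081 FPKM in inputs and 205 to 653 FPKM in RIP, although its protein was the target of the antibody. Relatives of the substrates did not follow the members. EIF4EBP2 was lower (-2.16) where EIF4EBP1 did not pass the test, and RPS6KB2 was higher (1.38) where RPS6KB1 was lower. For some genes the fit and FPKM pointed apart. PIK3R1, named after its values were seen, was lower in the fit (-0.52, adjusted p = 0.040) and higher by FPKM in 3 of 4 cell lines.

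**Figure D4:**
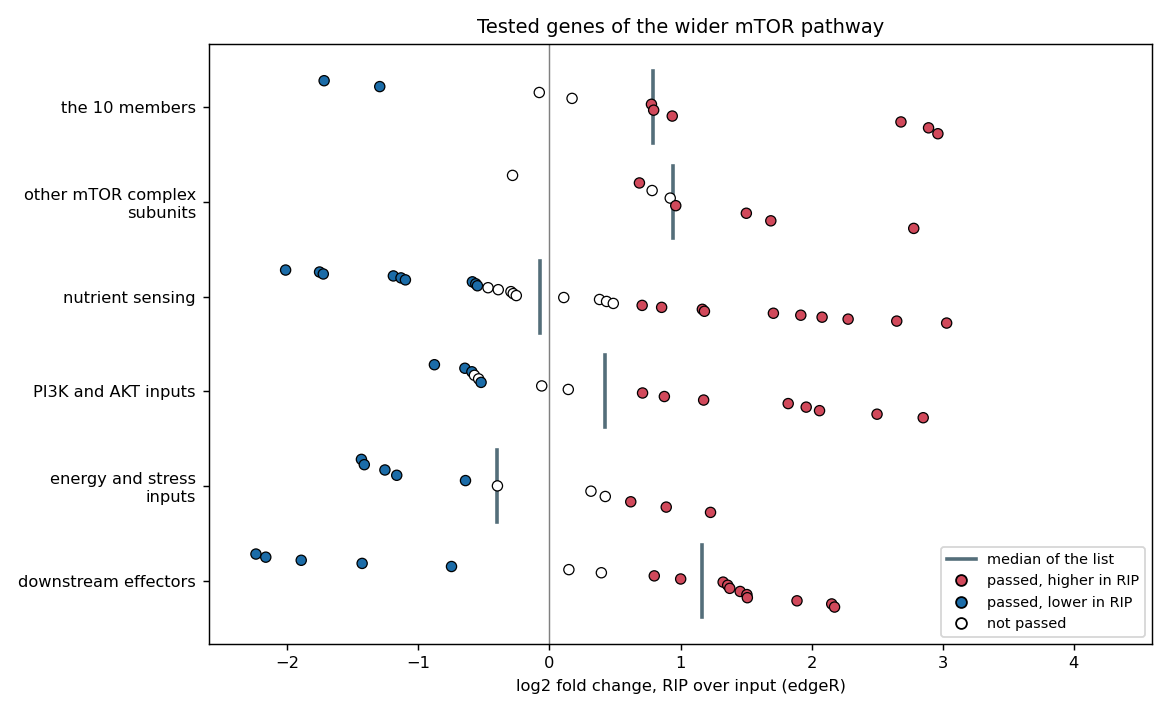
Log2 fold change of the tested genes of each list, with red points for genes higher in RIP, blue points for genes lower, white points for genes that did not pass the test, and a bar at the median. The medians run from -0.40 for energy and stress inputs to 1.16 for downstream effectors, and the members span -1.72 to 2.96.

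Across the 8 libraries, the genes whose log2(FPKM + 1) followed MTOR most closely among 11377 genes were TRRAP, DMPK and PKD1P1, with Pearson's r of 0.997, 0.994 and 0.994. TRRAP encodes a large relative of mTOR without kinase activity, which TELO2 and its partners also help to mature, and PKD1P1 is a pseudogene of PKD1 whose fragments may come from its parent. Of the other members, TSC2 came nearest to MTOR at place 113 (r = 0.97), followed by RPTOR at place 902 (r = 0.89), and RPS6KB1 was most opposed (r = -0.89). EIF4EBP1 was followed most closely by DNM1L, UBBP4 and RPP30, with r of 0.94, 0.94 and 0.93. These values describe 8 libraries that share 4 cell lines and the division into RIP and input.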

How the data were processed

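RPS6 RIP and input libraries of 4 cell lines were analysed. Per the labels, stranded total RNA libraries were sequenced, and CASAVA 1.8 and TopHat2 2.0.9 with genome build hg19 are named in the submitters' processing notes. The authors deposited FPKM, normalized for length and depth, and an estimated count per gene, both in 2 tables scaled separately. The counting tool and its strand setting are not given in the sources used here. A further 4 tables of the authors' fold changes, p-values and q-values were not used.

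The design assumed raw counts, but the estimated counts were scaled by 1 step per library. They were rounded and tested with edgeR 4.0.16 in R 4.3.3 (quasi-likelihood, TMM, cell line block, mean of at least 10 counts, Benjamini-Hochberg threshold 0.05). Its SE values were derived from the log2 fold change and the F statistic of the test. Division by the step made 92.7% to 94.1% of counts whole within 0.02, which gave the fragments. RIP and input of a cell line are paired by the labels, and their deviations from group means correlated with r of 0.80 to 0.87 across genes, against at most -0.01 between cell lines. Deviations from a group mean cancel out over its cell lines, which by itself lowers the values between cell lines, so these are no neutral yardstick. Ratios per cell line used log2(FPKM + 1), which understates changes of low genes, and an exact sign-flip permutation test. Counting intervals are 95% exact binomial.

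Members, lists and tests were chosen with earlier results of these data known. Genes named were the 10 members, in each wider list up to 2 passing genes with the largest positive and up to 2 with the largest negative fold change, AKT2, EIF4EBP2, RPS6KB2 and RPS6, and the 3 genes most like MTOR and EIF4EBP1 among those with a mean of at least 5 FPKM. Symbols, classes and first bases were from RefSeq GRCh38.p14, which matched 19133 protein-coding genes. Some further genes that this rule named are not reported here. First bases of EIF4EBP1 and MLST8 are not shown. Alternatives left out the block or each cell line, used DESeq2 1.42.0 or limma 3.58.1, changed the minimum count, pseudocount, centring, unit or length bins, and, added after the values were seen, used recovered fragments. Other steps ran in Python 3.11.15 (SciPy 1.17.1, pandas 2.3.3, NumPy 2.4.6, matplotlib 3.10.9), and the edgeR step was tested on simulated data.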

Additional observations from a re-analysis of the deposited data

How the results depend on the processing

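Calls for MTOR, RPTOR, TSC2, RHEB and RPS6KB1 held under every alternative run. Without the replicate block, which pairs RIP and input of a cell line, 3 members instead of 6 were higher (adjusted p of 0.079 for TSC1, 0.20 for AKT1 and 0.34 for MLST8), and 17 instead of 37 genes of the wider lists were higher and 3 instead of 23 lower. Under both limma settings on log2 FPKM, 12 wider genes were lower. PIK3CA and PRKAA2 were among those that no longer passed, whereas PRR5, TELO2, WDR24, AKT2, PHLPP1, EIF4EBP2, EIF4G1 and ULK1 passed under every alternative run. Leaving out each cell line in turn gave 5 to 6 higher members and 15 to 21 lower wider genes, the fewest without DU145 cells. EIF4EBP1 changed sign without SW1990 cells, with a log2 fold change between -0.44 and 0.18 and a mean FPKM ratio between -0.38 and 0.12 over the omissions. The mean log2 ratio of RICTOR was 0.40 by FPKM and -0.18 by deposited counts. The median log2 fold change of the longest bin of length exceeded that of the shortest by 1.22 with 4 bins and by 1.02 with 3. Without a filter on low counts the median of all 38022 genes was -0.60. The cause of these changes was not tested. Counting intervals spanned at most 0.16 on either side on the log2 scale. Each cell line has 1 library of each kind, so variation between replicate libraries is unknown.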
